A study of Homo sapiens with 10 samples.

Results

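The histone cluster genes are the genes named HIST1H to HIST4H, which lie in gene clusters on chromosomes 1 and 6, with 1 gene on chromosome 12. Every entry of the deposited gene tables with a symbol that begins in this way was taken, without regard to its value, and 72 of 23170 entries were found (70 different symbols). RNA-seq was made of 10 samples, all of PC3, a line from a human prostate cancer, with paired 50-base reads, in 4 groups. PC3-Epi (2 samples) is a luciferase-carrying PC3 subpopulation picked for its epithelial look, and PC3-EMT14 (3 samples) is 1 mesenchymal population isolated after PC3-Epi was co-cultured with IL-4 treated CD14+ monocytes (M2 macrophages) and passaged. PC3-EMT14 cells given a lentiviral vector for the zinc-finger transcription factor OVOL1 make up PC3-EMT14-OVOL1 (3 samples). The same cells with a vector for the related factor OVOL2 make up PC3-EMT14-OVOL2 (2 samples), and PC3-EMT14 is the comparison line of both. No line with an empty vector is among the samples, so an effect of the vector itself was not tested. All 4 lines thus derive from PC3-Epi. The tables name 3 of the lines with a suffix that the PC3-Epi name lacks. What it stands for is not given in the sources used here, so PC3-Epi and any difference in read handling cannot be told apart.

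Each line has 1 FPKM value per gene and comparison, pooled by the authors over its samples (a fragment count corrected for the length of the transcript and for depth, so that levels can be set side by side between genes). No SD can therefore stand beside a value. A test over samples could not be run from pooled values, and the authors' own test results were not used. The depth behind a value is unknown, and a fold given here has no replicate check. A gene was counted as higher or lower when its pooled values differed by at least 2-fold. The counts of histone cluster genes in a comparison are given with the share of all genes that did the same. The counts of the smaller gene lists are to be read against this share as well. It was taken at the main settings only, so counts under other settings carry no share. The labels of the lines were mostly borne out by their marker genes. CDH1, the epithelial cadherin, was at 50.6 FPKM in PC3-Epi, 1.00 in PC3-EMT14, 16.2 in PC3-EMT14-OVOL1 and 39.2 in PC3-EMT14-OVOL2. VIM, the mesenchymal filament protein vimentin, went the other way, at 42.5, 270.5, 183.4 and 76.9 FPKM in the same order. In PC3-Epi all 6 epithelial markers stood above PC3-EMT14, 5 of them by 2-fold. All 4 mesenchymal markers stood below it, 2 of them by 2-fold. The keratin gene KRT19 (742 against 671 FPKM) and the fibronectin gene FN1 (33.8 against 36.8) differed little. With OVOL1, KRT19 was at 0.93 of its PC3-EMT14 level. OVOL1 was at 11.3 FPKM in the line that overexpresses it against 0.024 in PC3-EMT14. OVOL2 was at 831 FPKM in its own line against 0.383 in PC3-EMT14. Of the markers of luminal prostate cells, KLK3 and KLK2 were listed at 0 in all 4 lines.

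Histones package DNA. Pairs of H2A with H2B and of H3 with H4 form the core of the nucleosome, and H1 closes the linker DNA between nucleosomes. Most of the proteins come from the clustered genes, which lack introns and are transcribed mainly while DNA is replicated in S phase. Their mRNAs are unusual in that they usually end in a conserved stem loop, bound by the stem loop binding protein SLBP, in place of a poly(A) tail. Some clustered genes can also give a longer polyadenylated mRNA by reading past the stem loop, and this form is known from cells that have stopped dividing. Whether these libraries selected poly(A) RNA or depleted ribosomal RNA is not given in the sources used here, and this sets how much of the tailless form they could hold.

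The stem loops of genes that the results turn on are printed first because they mark the entries as replication-type histone genes. Each is 26 bases of the GRCh37 (hg19) genome on the strand of the gene, with the 6-pair stem and its 4-base loop in capitals.
HIST1H2BK: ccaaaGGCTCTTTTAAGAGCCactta
HIST1H1C: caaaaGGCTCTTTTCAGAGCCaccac
HIST1H2BJ: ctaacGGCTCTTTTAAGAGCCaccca
HIST1H4H: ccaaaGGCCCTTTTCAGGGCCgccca
HIST2H4A: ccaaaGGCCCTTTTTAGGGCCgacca

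The search was for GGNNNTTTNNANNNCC with bases that pair across the stem. It found a stem loop within 100 bases of a locus end in 59 of the 72 histone entries (81.9%), against 6 of the 21913 other entries that lie on sequences of the reference genome (0.0274%). Inside the loci, 66 histone entries held one, in 5 forms. The form of HIST1H1C, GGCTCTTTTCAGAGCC, was in 41 entries. The form of HIST1H2BK and HIST1H2BJ, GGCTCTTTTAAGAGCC, was in 10, and the GC-richer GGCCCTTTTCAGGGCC of HIST1H4H was also in 10. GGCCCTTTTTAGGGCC, the form of HIST2H4A, was in 4. For 58 entries that were a single gene the locus ended within 100 bases after the loop, and 5 more ran past it. HIST1H2BD ran on for 12746 bases and HIST2H2BE for 1728 bases. HIST1H2BK, at chr6:27106072-27114637, ran on for 8073 bases, and HIST1H4I, on the opposite strand, was listed with the same locus. Such deposited loci hold sequence beyond the usual histone mRNA end.

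The promoters differed by histone type. Of the 72 entries, 57 were matched to a RefSeq promoter (GRCh38.p14), and the 250 bases before the start were searched on both strands for 4 short motifs, of which none contains another. The octamer ATTTGCAT, the site known from H2B promoters, was in 12 of 16 H2B and 10 of 14 H2A promoters and in 0 of those of the H1, H3 and H4 entries, against 1.66% of all 27305 RefSeq promoters. It was also in the promoter matched to the joint entry of HIST1H2AD and HIST1H3D, which RefSeq lists under the H3 gene. AAACACA, the H1 box, was in 6 of 6 H1 promoters and in 0 of the others, against 4.95% of all. CCAAT was in every H1, H2A, H2B and H3 promoter searched and in 2 of 9 H4 promoters (33.0% of all). TATAAA was in 40 of 57 (11.1% of all). A promoter of each kind is shown, 150 bases up to the start on the gene's strand, with any match to the 4 motifs in capitals. HIST1H2BJ (chr6:27132796-27132945, minus strand) holds CCAAT on either strand, the octamer and TATAAA. HIST1H1C (chr6:26056471-26056620, minus strand) holds the H1 box and CCAAT. HIST1H4H (chr6:26285535-26285684, minus strand) has no match in this stretch.
HIST1H2BJ: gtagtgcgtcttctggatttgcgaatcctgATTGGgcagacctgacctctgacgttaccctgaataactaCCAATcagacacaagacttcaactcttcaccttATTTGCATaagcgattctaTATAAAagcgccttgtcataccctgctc
HIST1H1C: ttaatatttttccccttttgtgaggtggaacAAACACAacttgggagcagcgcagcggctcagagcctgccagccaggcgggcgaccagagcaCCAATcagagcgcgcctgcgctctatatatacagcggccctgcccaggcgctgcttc
HIST1H4H: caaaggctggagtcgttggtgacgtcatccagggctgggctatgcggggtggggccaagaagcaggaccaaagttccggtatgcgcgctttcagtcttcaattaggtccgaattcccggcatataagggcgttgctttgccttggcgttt

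Few of the clustered genes were abundant. A mean over the 4 lines of at least 1 FPKM, the floor for every count below, was reached by 27 entries: 1 of 6 of type H1, 8 of 16 of H2A, 9 of 21 of H2B, 2 of 13 of H3, 6 of 15 of H4, and 1 entry that joins HIST1H2AD with HIST1H3D. Over all genes 12113 entries reached it. A mean of at least 10 FPKM was reached by 8 histone entries. The 3 most abundant histone entries held between 47.8% (PC3-EMT14) and 54.1% (PC3-Epi) of the summed histone FPKM.

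HIST1H2BK, an H2B gene, was the most abundant member in every line, at 106 FPKM in PC3-Epi, 61.5 in PC3-EMT14, 66.3 in PC3-EMT14-OVOL1 and 92.6 in PC3-EMT14-OVOL2. Its level stood above 96.7% of all genes in PC3-Epi and 94.2% in PC3-EMT14. HIST1H1C, which encodes the linker histone H1.2, followed at 63.2, 25.1, 30.4 and 47.4 FPKM in the same order of lines. It alone made up 97.1% of the H1 total in PC3-Epi, while HIST1H1E stayed between 0.383 and 1.07 FPKM and HIST1H1D between 0.218 and 0.457. HIST1H2AC, an H2A gene, was at 35.9, 24.9, 22.2 and 41.1 FPKM. All 3 genes were higher in PC3-Epi and PC3-EMT14-OVOL2 than in the other lines.

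The next members differed in which line stood apart. HIST2H2AA3, an H2A gene present as identical copies at chr1:149813785-149814318 and chr1:149822628-149823161, was at 13.7, 11.3, 14.4 and 26.7 FPKM at the first copy. The second copy was at 13.6, 11.4, 14.4 and 26.7 FPKM. Every 50-base stretch of one is in the other, so their reads cannot be told apart and the pair is 1 measurement. HIST1H2BC was at 14.1, 12.0, 11.5 and 22.0 FPKM, with PC3-EMT14-OVOL2 alone standing apart. HIST1H2BD was at 16.8, 10.7, 11.0 and 15.3 FPKM. HIST3H2A, the only HIST3 gene over the floor, was at 17.3 FPKM in PC3-Epi and between 8.62 and 10.2 FPKM in the mesenchymal-derived lines.

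Among the H4 genes, HIST2H4A was at 8.64, 6.45, 5.20 and 9.75 FPKM and its copy HIST2H4B at 8.55, 6.45, 5.20 and 9.70. HIST1H4H was at 6.93, 6.55, 3.84 and 8.47 FPKM, with PC3-EMT14-OVOL1 the lowest of the lines. By summed FPKM, with the joint entry of HIST1H2AD and HIST1H3D left out, H3 was the least abundant type. By the median entry, H1 was lower than H3 in every line, at 0.162 against 0.409 FPKM in PC3-EMT14. HIST1H3H was at 3.24, 1.61, 1.21 and 1.68 FPKM. HIST1H3E was at 1.11, 2.13, 1.63 and 2.42 FPKM, lowest in PC3-Epi, and HIST1H3C between 0.401 and 1.41. The lines were also ordered by their folds against PC3-EMT14, each taken within its own table. PC3-EMT14-OVOL2 was then the highest line for 14 of the 27 entries (18.8% of all genes) and PC3-Epi for 13 (36.9%). PC3-EMT14 was the highest for 0 (29.0%), as was PC3-EMT14-OVOL1 (15.2%). PC3-EMT14-OVOL1 was the lowest line for 14 entries (10.5% of all genes) and PC3-EMT14 for 9 (24.6%).

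**Figure D1:**
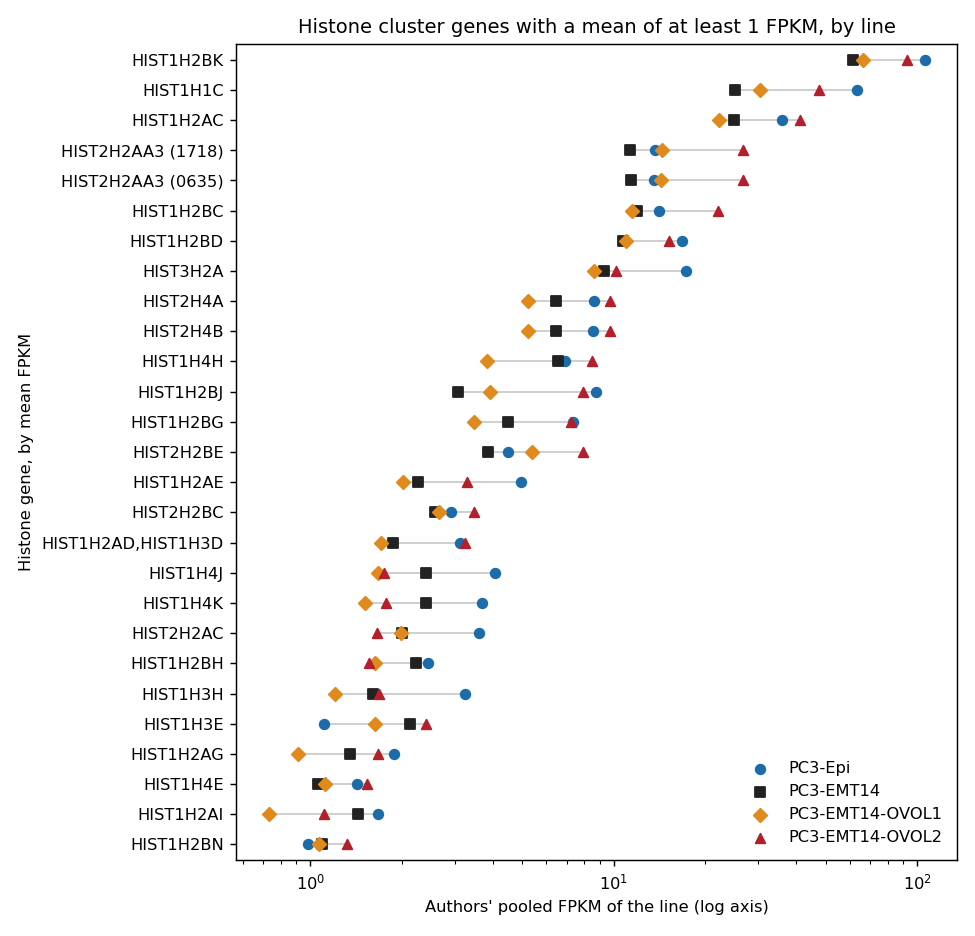
Pooled FPKM (log axis) of the 27 histone cluster entries with a mean of at least 1 FPKM, 1 row per entry and 1 symbol per line, with no error since each value is the authors' pooled value. The rightmost symbol of each row is PC3-Epi or PC3-EMT14-OVOL2 (nearly level for HIST1H2BG, and tables were normalized separately), and HIST1H2BK leads with 106 FPKM in PC3-Epi; the 4 digits after HIST2H2AA3 tell its copies apart.

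PC3-Epi against PC3-EMT14 sets the epithelial parent line beside the mesenchymal population derived from it. Histone cluster genes were mostly more abundant in PC3-Epi, where 25 of 27 stood above PC3-EMT14 (49.0% of all genes did) and 4 were at least 2-fold higher (6.45% of all genes). The number at least 2-fold lower was 0 (7.49% of all genes). The higher count was 2 at a floor of 5 FPKM or with 1 FPKM added to both values, and 18 of 61 entries without a floor. For these settings the share of all genes was not counted. The median log2 fold was 0.48, against -0.01 over all genes. The 4 genes were HIST1H2BJ, HIST1H1C, HIST1H2AE and HIST1H3H, which encode histones of 4 different types.

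HIST1H2BJ, an H2B gene, had the largest fold, at 8.77 FPKM in PC3-Epi against 3.07 in PC3-EMT14 (2.86-fold). The linker histone gene HIST1H1C was 2.52-fold higher. HIST1H2AE, of type H2A, was at 4.94 against 2.27 FPKM (2.18-fold), and HIST1H3H lay just inside the threshold, with 3.24 against 1.61 FPKM. HIST3H2A at 1.87-fold was the nearest of the genes with at least 10 FPKM that did not reach it. HIST1H2BK was 1.72-fold, HIST1H2BD 1.57-fold and HIST1H2AC 1.44-fold higher. All 8 H2A and all 6 H4 entries stood above PC3-EMT14, the H4 entries by log2 folds from 0.08 (HIST1H4H) to 0.76 (HIST1H4J). The 2 entries below PC3-EMT14 (51.0% of all genes were below) were HIST1H3E, at a log2 fold of -0.94, and HIST1H2BN at -0.15.

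PC3-EMT14-OVOL1 against PC3-EMT14 sets the cells that overexpress OVOL1 beside the mesenchymal cells they were made from. No histone gene over the floor moved by 2-fold: 0 of 27 were at least 2-fold higher (2.54% of all genes) and 0 at least 2-fold lower (1.14%). The values were spread on both sides, with 11 entries above PC3-EMT14 (50.5% of all genes) and 16 below it (49.5%). The median log2 fold was -0.10, against 0.00 over all genes, and it was 0.0221 at a floor of 5 FPKM, so it has no stable direction.

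Entries below PC3-EMT14 were found in several types. They were 5 of 6 of the H4 entries (3 of 4 with close copies counted once), both H3 entries, 5 of 8 H2A entries and 3 of 9 H2B entries. The median log2 folds were -0.39 for H4, -0.37 for H3, -0.10 for H2A and 0.07 for H2B. HIST1H4H, at 0.60 of its PC3-EMT14 level, was the furthest down among the H4 genes over the floor. HIST1H2AI, an H2A gene, came nearest to the threshold of the members over the floor, at 0.732 FPKM against 1.44 (0.52 of the PC3-EMT14 level); 67.4% of its 50-base stretches also occur in HIST1H2AJ. On the other side HIST2H2BE stood at 5.37 FPKM against 3.85, which is the highest fold (log2 0.51). HIST1H2BJ was 1.30-fold and HIST1H1C 1.24-fold above PC3-EMT14.

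PC3-EMT14-OVOL2 against PC3-EMT14 makes the same comparison for OVOL2. Here 22 of 27 entries stood above PC3-EMT14 (44.0% of all genes), and 4 were at least 2-fold higher (4.06% of all genes). The number at least 2-fold lower was again 0 (2.41%). The higher count was 8 without a floor and 2 without the entries that share at least 50% of their 50-base stretches with another histone entry. The median log2 fold was 0.58, against -0.04 over all genes. The 4 entries were HIST1H2BJ, the pair of HIST2H2AA3 copies and HIST2H2BE, so they are 3 genes by sequence, and none is of type H1, H3 or H4.

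HIST1H2BJ again had the largest fold, at 7.93 FPKM in PC3-EMT14-OVOL2 (2.67-fold). HIST2H2AA3 was 2.43-fold higher at either copy, where PC3-Epi had been 1.21-fold and 1.20-fold above PC3-EMT14. HIST2H2BE, of type H2B, was at 7.90 FPKM (2.12-fold) and had been 1.16-fold above in PC3-Epi. HIST1H1C at 1.95-fold and HIST1H2BC at 1.90-fold lay just outside the threshold. HIST1H2AC was 1.70-fold, HIST1H2BK 1.56-fold and HIST3H2A 1.14-fold higher.

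The 5 entries below PC3-EMT14 (56.0% of all genes were below) all had a mean of under 3 FPKM. The lowest was HIST1H2BH, an H2B gene, at a log2 fold of -0.47. HIST1H4J at -0.42 and its close copy HIST1H4K at -0.40 followed; 91.2% of the 50-base stretches of the former occur in the latter. Their level was 1.75 and 1.78 FPKM in PC3-EMT14-OVOL2, near that in PC3-EMT14-OVOL1. The comparisons of PC3-Epi and of the OVOL lines with PC3-EMT14 share that line's libraries, so a low value there would raise all of them.

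PC3-EMT14-OVOL2 against PC3-EMT14-OVOL1 does not use PC3-EMT14 and sets the OVOL lines side by side in 1 table. Histone genes were higher with OVOL2 for 25 of 27 entries (42.1% of all genes), with 3 at least 2-fold higher (1.59% of all genes) and 0 at least 2-fold lower (1.15%). The median log2 fold was 0.62, against -0.04 over all genes. The largest fold was that of HIST1H4H, at 8.47 against 3.79 FPKM in this table (2.23-fold). HIST1H2BG, an H2B gene, was at 7.25 against 3.44 FPKM (2.11-fold). HIST1H2BJ was at 7.93 against 3.87 FPKM (2.05-fold). With 1 FPKM added to both values, 0 of the 27 entries reached 2-fold, and without a floor 8 of 63 entries did.

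Several abundant genes lay just under the threshold. HIST1H2BC was 1.93-fold, HIST2H4A 1.89-fold, HIST2H2AA3 1.87-fold and 1.88-fold, and HIST1H2AC 1.87-fold higher with OVOL2. The entries lower with OVOL2 (57.9% of all genes were lower) were HIST2H2AC, an H2A gene, at a log2 fold of -0.25, and HIST1H2BH at -0.05. In 12 of the 27 entries (9.39% of all genes) OVOL2 cells stood above PC3-EMT14 while OVOL1 cells stood below it, HIST1H4H, HIST1H2BG and HIST1H2AC among them. With close copies counted once it was 11 of 24.

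**Figure D2:**
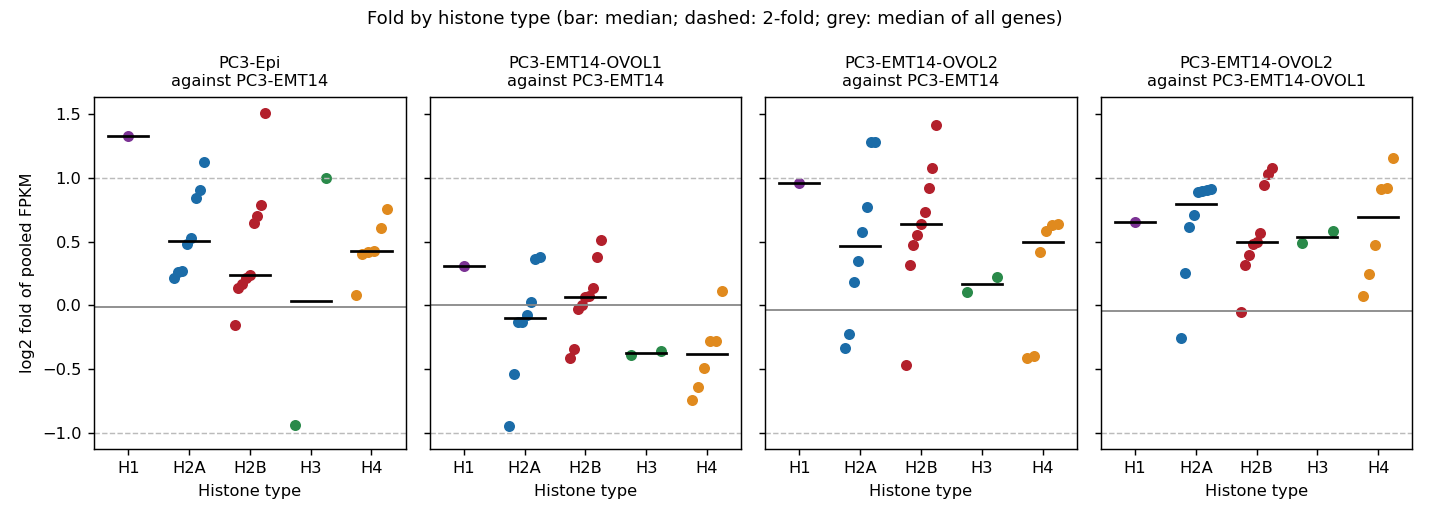
log2 fold of pooled FPKM for the histone cluster entries over the floor, by histone type (1 point per entry) in the 4 comparisons; black bars are medians, the grey line the median of all genes and dashed lines 2-fold. Points lie mostly above the grey line for PC3-Epi and for OVOL2, while with OVOL1 5 of 6 H4 entries and both H3 entries lie below it; the entry that joins HIST1H2AD and HIST1H3D is not drawn.

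Summed over all 72 entries, histone cluster RNA was 379 FPKM in PC3-Epi, 233 in PC3-EMT14, 236 in PC3-EMT14-OVOL1 and 374 in PC3-EMT14-OVOL2. Within the tables the ratio was 1.63 for PC3-Epi, 1.03 for OVOL1 and 1.66 for OVOL2 against PC3-EMT14, and 1.60 for OVOL2 against OVOL1. As a share of all FPKM these genes made up 0.0796%, 0.0535%, 0.0536% and 0.0899% in the same order. In a population of cells, fewer cells in a given state and less RNA per cell cannot be told apart.

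The types did not move alike. The H1 total was 2.52-fold higher in PC3-Epi, 1.23-fold with OVOL1 and 1.95-fold with OVOL2, which are close to the folds of HIST1H1C alone. The H2A total was 1.46-fold higher in PC3-Epi and 1.80-fold with OVOL2, and the H2B total 1.61-fold and 1.62-fold. HIST1H2BK alone held 62.7% of the H2B total in PC3-Epi and 58.6% in PC3-EMT14, and the median H2B entry over the floor was 1.18-fold higher in PC3-Epi and 1.56-fold with OVOL2. The H2A and H2B totals were near the PC3-EMT14 level with OVOL1, at ratios of 1.04 and 1.08. The H4 total was 1.31-fold higher in PC3-Epi and 1.32-fold with OVOL2, but at 0.74 of the PC3-EMT14 level with OVOL1. The H3 total, which never exceeded 9.55 FPKM, had ratios of 1.40, 0.80 and 1.12. The joint entry of HIST1H2AD and HIST1H3D is in neither the H2A nor the H3 total. It was between 1.71 and 3.25 FPKM, with ratios of 1.67, 0.94 and 1.79.

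The clusters were compared as well. For the 19 HIST1 entries, all on chromosome 6, the median log2 fold against PC3-EMT14 was 0.61 in PC3-Epi, -0.13 with OVOL1 and 0.55 with OVOL2. For the 7 HIST2 entries, on chromosome 1, it was 0.27, 0.08 and 0.64. All 4 genes at least 2-fold higher in PC3-Epi were HIST1 genes. Of the 4 entries at least 2-fold higher with OVOL2, 3 were HIST2 entries, which include the identical copies.

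Many H2A and H2B genes are arranged head to head with a short stretch between their starts, and 12 such pairs were found with a gap of at most 1000 bases. In 3 of the 12 pairs the mean levels of the neighbouring entries were at least 5-fold apart. HIST1H2BK had a mean of 81.5 FPKM and HIST1H2AH, 270 bases away, 0.326, a ratio of 250. HIST3H2A and HIST3H2BB, with 247 bases between them, differed by 15.5-fold. In the remaining pair the joint entry of HIST1H2AD and HIST1H3D had a mean of 2.49 FPKM, beside 0.461 for HIST1H2BF. Most of the joint entry was HIST1H3D, and HIST1H2AD itself was listed between 0 and 0.685 FPKM. That ratio is therefore not one of an H2A gene to its H2B neighbour. The other extreme was HIST1H2BO and HIST1H2AM, which differed by 1.46-fold.

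In 4 pairs both genes were over the floor. HIST1H2AC and HIST1H2BC, with 240 bases between them, had means of 31.0 and 14.9 FPKM and folds of 1.70 and 1.90 with OVOL2. HIST1H2BG and HIST1H2AE had folds of 1.66 and 1.49 with OVOL2. The other pairs moved less alike. HIST1H2BJ was 2.67-fold higher with OVOL2 while HIST1H2AG across 241 bases was 1.28-fold higher. HIST2H2BE was 2.12-fold higher with OVOL2 while HIST2H2AC across 292 bases was at 0.85 of its PC3-EMT14 level. In PC3-Epi that order was turned, at 1.16-fold for HIST2H2BE and 1.80-fold for HIST2H2AC. A shared stretch of promoter DNA was thus found beside both like and unlike folds.

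The isoform tables list more than 1 form for few of these genes. HIST1H2BD has a pair of isoform entries, and they behaved differently. One of them, TCONS_00027902, was at 4.47 FPKM in PC3-Epi, 0.477 in PC3-EMT14, 1.35 in PC3-EMT14-OVOL1 and 2.60 in PC3-EMT14-OVOL2. It held 26.5%, 4.44%, 12.2% and 17.0% of the gene's FPKM in that order, and was 9.37-fold, 2.89-fold and 5.66-fold above PC3-EMT14. The other, TCONS_00027903, stayed between 9.67 and 12.7 FPKM. The gene as a whole was 1.57-fold higher in PC3-Epi, so most of that difference lay in the lesser isoform. The isoform entries carry only the gene's locus, chr6:26158349-26171576, and which of them is the short stem loop form or the long form was not analysed here. The joint entry of HIST1H2AD and HIST1H3D was mainly HIST1H3D, at 2.44, 1.87, 1.39 and 2.84 FPKM, while HIST1H2AD was listed at 0 in PC3-EMT14.

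**Figure D3:**
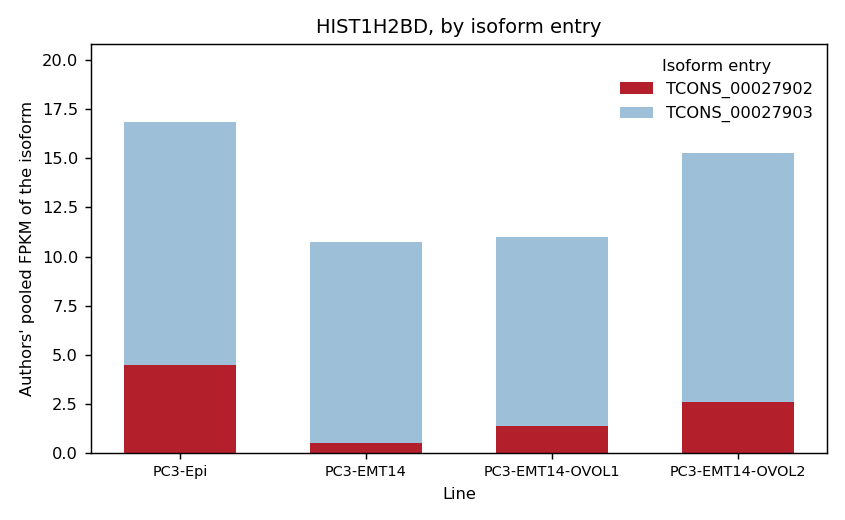
Pooled FPKM of the pair of HIST1H2BD isoform entries in the 4 lines, stacked so that the bar height is their sum; there are no error bars since each value is pooled. The red part, TCONS_00027902, goes from 0.477 FPKM in PC3-EMT14 to 4.47 in PC3-Epi, while the blue part stays between 9.67 and 12.7.

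The other 45 entries had a mean below 1 FPKM. Of these, 6 were listed at 0 in all 4 lines (HIST1H1A, HIST1H2AA, HIST1H3I, HIST1H4F, HIST1H4G and HIST1H4L) and 5 in 1 to 3 lines. HIST1H2BA, the testis H2B gene, was listed at 0.018 FPKM in PC3-EMT14-OVOL2 and at 0 elsewhere. Their folds rest on very low values. HIST1H4D was at 0.193 FPKM in PC3-Epi against 0.016 in PC3-EMT14, and HIST1H2AH at 0.573 against 0.115. HIST1H3F went the other way, at 0.174 against 0.401 FPKM.

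Genes that work with the clustered histones were followed in lists. Cluster histones are made in S phase, so the level of 19 genes of S phase and DNA replication was set beside them. All 19 stood above PC3-EMT14 in PC3-Epi, with a median log2 fold of 1.05 and 10 at least 2-fold higher, a larger difference than the histone median of 0.48. MCM4, a subunit of the replicative helicase, had a log2 fold of 1.88, at 53.2 against 14.5 FPKM. GINS2, a subunit of its partner complex, had a log2 fold of 1.67.

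With OVOL1 and OVOL2 the S phase genes gave nearly the same picture. All 19 stood above PC3-EMT14 in both lines, none by 2-fold, with median log2 folds of 0.30 and 0.31. The largest log2 folds were those of the replication licensing factor CDT1 (0.49 with OVOL1 and 0.72 with OVOL2) and GINS2 (0.48 and 0.58). Between the OVOL lines the S phase median was -0.01, with 9 genes higher and 10 lower with OVOL2, while the histone median was 0.62. PCNA, the DNA polymerase clamp and the most abundant of the list, was at 143 FPKM with OVOL1 and 138 with OVOL2. The part of S phase in the histone levels was not tested.

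Variant histone genes, which lie outside the clusters and mostly carry introns and poly(A) tails, reached higher levels than any clustered gene. H3F3B, a gene of the H3.3 variant, was at 385 FPKM in PC3-Epi and 406.5 in PC3-EMT14. Of 12 variant genes over the floor, 9 were above PC3-EMT14 in PC3-Epi, with a median log2 fold of 0.63 and 2 at least 2-fold higher. These were H2AFX, the variant phosphorylated at DNA breaks, at 147 against 56.9 FPKM (2.59-fold), and H2AFV at 150 against 72.8 (2.06-fold). With OVOL2 the variant median was 0.24 and between the OVOL lines 0.06, and none reached 2-fold. H1FX, a linker histone gene, was nearest, at 1.85-fold with OVOL2. H3F3C, at a log2 fold of -0.36, was the lowest.

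Of 20 genes for the transcription and end processing of histone mRNA, all over the floor, 16 stood above PC3-EMT14 in PC3-Epi, with a median log2 fold of 0.33. CCNE2, a cyclin that activates CDK2 at the entry to S phase, was the only one past 2-fold, at 13.9 against 6.64 FPKM. SLBP, which binds the stem loop, was at 39.9 FPKM in PC3-Epi, 25.2 in PC3-EMT14, 30.3 with OVOL1 and 30.4 with OVOL2. NPAT, the coactivator of the histone clusters, was at 7.11, 4.50, 4.47 and 3.81 FPKM. CCNE1, the paralog of CCNE2, had the largest log2 folds of the list in the OVOL lines, at 0.45 with OVOL1 and 0.52 with OVOL2. Between the OVOL lines these genes had a median log2 fold of -0.11, and none of the 18 with a value reached 2-fold. Between them SLBP had a log2 fold of 0.02 and NPAT of -0.22.

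**Figure D4:**
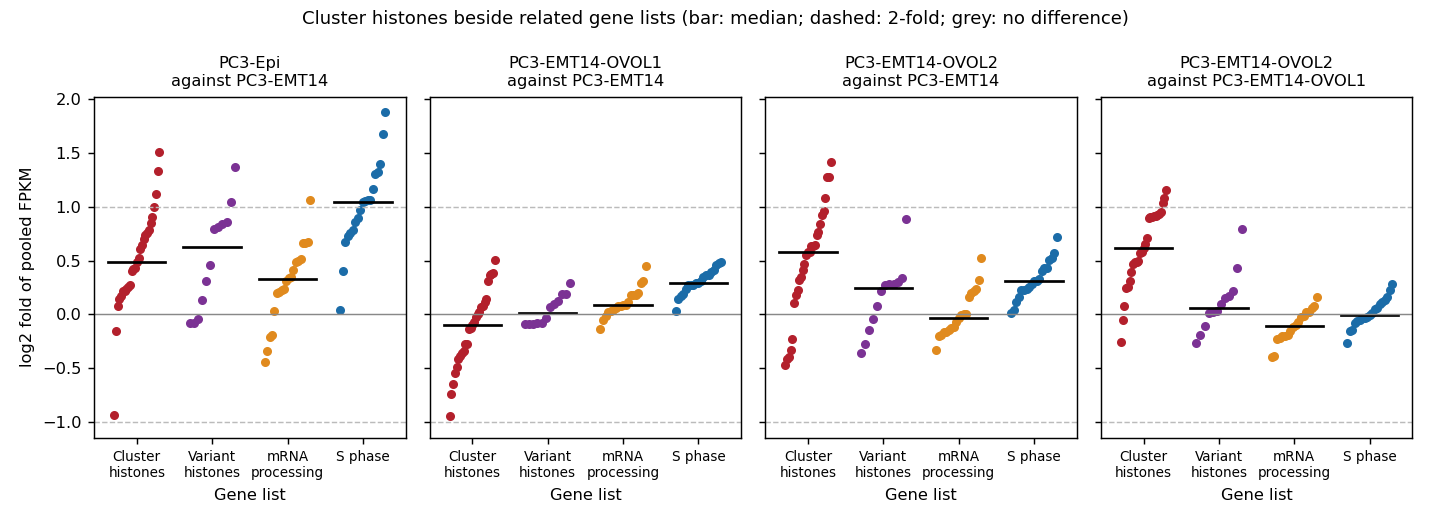
log2 fold of pooled FPKM for the 27 cluster histone entries, 12 variant histones, up to 20 genes of histone mRNA transcription and processing, and 19 S phase genes (1 point per entry) in the 4 comparisons; black bars are medians, grey is no difference and dashed lines 2-fold. In PC3-Epi the S phase median (1.05) lies above the histone median (0.48), while between the OVOL lines the histone median (0.62) stands above those of the variant (0.06), processing (-0.11) and S phase (-0.01) lists.

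Other RNAs that are made without a usual poly(A) tail were looked at because the capture of such RNA bears on the histone values. Most of the 422 entries are small nucleolar and similar RNAs, and between 278 and 311 of them were listed at 0 in a line. Their sum was 31074 FPKM in PC3-Epi, 7352 in PC3-EMT14, 9773 in PC3-EMT14-OVOL1 and 1452 in PC3-EMT14-OVOL2. A few entries carried these sums, led by RNU86 in PC3-Epi at 12551 FPKM and SNORD29 in PC3-EMT14 at 2415 FPKM, so the sums do not speak for the list. Over the entries above the floor with a value over 0 in both lines, the median log2 fold against PC3-EMT14 was 1.25 in PC3-Epi, 0.23 with OVOL1 and -0.02 with OVOL2, where the histone medians were 0.48, -0.10 and 0.58. Between the OVOL lines it was -0.13. The 2-fold counts between them also took in entries at 0 in either line, 45 of 112. Of these 112, 52 were at least 2-fold lower and 18 at least 2-fold higher with OVOL2. Single folds were wide. SNORA9 was at 10.8 FPKM in PC3-Epi against 0.251 in PC3-EMT14, and SNORD68 at 517 against 1470. Among the longer RNAs, MALAT1 was at 4.69, 7.68, 6.03 and 8.96 FPKM, and RMRP, the RNA of an endoribonuclease, at 20.0, 14.9, 14.2 and 6.72. NEAT1, which has both tailed and tailless forms, was at 25.4, 67.3, 81.4 and 153 FPKM. The part of RNA capture in the histone differences was not tested.

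Macrophages were the co-culture partner of the cells that became PC3-EMT14, so their markers were checked. Of 19 entries, only CD68, a lysosomal protein that other cells also make, was over 1 FPKM, at 13.2 FPKM in PC3-Epi, 54.1 in PC3-EMT14, 51.2 in PC3-EMT14-OVOL1 and 57.8 in PC3-EMT14-OVOL2. The other 18 entries summed to between 0.371 and 0.557 FPKM in a line, and the defining markers C1QA and C1QB were listed at 0 in all. PTPRC, the leukocyte antigen CD45, was at most 0.030 FPKM. Several of the 19 entries are repeated loci of the gene AIF1, so the list holds fewer genes than entries.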

How the data were processed

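RNA of 10 samples in 4 lines was sequenced. The authors aligned the reads to the hg19 transcriptome with TopHat and deposited 8 Cuffdiff tables (4 of 23170 genes, 4 of 37557 isoforms), with FPKM values pooled over the samples of each line. The submitters' processing notes also name FastQC and Cufflinks. Cuffdiff corrected for multiply mapped reads and sequence bias and scaled by upper quartile and compatible hits, so close copies share reads by estimation. Other deposited columns hold the authors' fold change, test statistic, p-value and q-value and were not used. The number of unused columns of single samples was 0.

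Folds were recomputed within a table, without a pseudocount, in Python 3.11.15 (numpy 2.4.6, pandas 2.3.3, plots with matplotlib 3.10.9). Entries with a mean over the lines of at least 1 FPKM and no failed status were counted at 2-fold. Because the tables were normalized separately, levels of PC3-EMT14 come from its table with PC3-Epi and those of other lines from their table against PC3-EMT14. For the same line, tables differed by a median factor of 1.00 to 1.03. No test could be run on the pooled values and the authors' test results were not used. The counting was tested on simulated data. Loci start counts were raised by 1, which matched 9158 annotated starts against 1279 as deposited. The rule for naming took the 3 most abundant entries of each type, all entries past 2-fold, and of each list the largest folds in either direction, of which not all are printed for each list and comparison. Other entries were chosen for mention after their values were seen. The members and lists were chosen with earlier results of these data known. Alternatives changed the floor, pseudocount, fold, scaling, table and entries kept.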

Additional observations from a re-analysis of the deposited data

How the results depend on the processing

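Of 151 values recomputed under other settings for the 12 counts and medians, 124 stayed close to the value reported. The share of all genes was not counted under these settings, so the counts below cannot be read against it. Without a floor, the entries at least 2-fold higher were 18 in PC3-Epi, 3 with OVOL1, 8 with OVOL2 and 8 for OVOL2 against OVOL1, those at least 2-fold lower were 1, 2 and 2 against PC3-EMT14, and the PC3-Epi median log2 fold was 0.65. At a floor of 5 FPKM, 2 entries were higher in PC3-Epi, and the medians were 0.75 with OVOL2 and 0.91 for OVOL2 against OVOL1. The OVOL1 median changed sign there, from -0.0968 to 0.0221. With 1 FPKM added to both values, 2 entries were higher in PC3-Epi and 0 for OVOL2 against OVOL1, with medians of 0.37, 0.42 (OVOL2) and 0.49 (OVOL2 against OVOL1). At 1.5-fold, 12 entries were higher in PC3-Epi, 12 with OVOL2 and 14 for OVOL2 against OVOL1, and 1 was lower in PC3-Epi and 3 with OVOL1. At 4-fold the higher counts were 0 in each of these. A setting chosen after seeing the data left out entries that share at least 50% of their 50-base windows with another histone entry, which gave a PC3-Epi median of 0.59 and 2 entries higher with OVOL2. Centring on all genes, isoform sums, 0.1 FPKM added, rows of 1 symbol, and copies counted once (also chosen after seeing the data) moved no count by over 1.5 times. No paired analysis was possible because the tables hold 1 pooled value per line, and for the same reason leaving out single samples was not run. The depth of the samples is unknown.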

Other observations

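Histone chaperones, which carry histones to DNA, did not move as 1 group. Of 17 genes over the floor, 12 stood above PC3-EMT14 in PC3-Epi, with a median log2 fold of 0.28. NASP, a chaperone that holds the pool of H3 and H4, was at 60.2 FPKM in PC3-Epi against 31.0 in PC3-EMT14, and CHAF1B, a subunit of the assembly factor CAF-1 that works at replication forks, at 16.4 against 8.80. ATRX, which works with DAXX on the H3.3 variant, was the only one past 2-fold and was lower in PC3-Epi, at 7.90 against 17.1 FPKM. ASF1A was lower too, at 15.3 against 23.4 FPKM, while its paralog ASF1B was higher, at 79.4 against 48.1. With OVOL2 the chaperone median was -0.10 and between the OVOL lines -0.12, with 14 of 17 lower with OVOL2.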
